A study of Mus musculus with 32 samples.

Results

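The mouse mitochondrial genome carries 37 genes, all of which were taken by their symbols, which begin with mt-. They are 2 ribosomal RNA (rRNA) genes, 13 protein-coding genes and 22 transfer RNA (tRNA) genes, out of 55415 features counted. Their RNA was measured in striatum, the part of the forebrain that degenerates first in Huntington disease. The 32 libraries came from 4 groups of 8 animals on a B6 background. YAC128 mice carry a full-length human huntingtin gene with an expanded glutamine repeat on a yeast artificial chromosome, in addition to their own mouse Htt. YAC128 mice in the first group were given AON12.1, an antisense oligonucleotide that the series title links to the caspase-6 site of huntingtin, those in another a scrambled oligonucleotide and those in the third only artificial cerebrospinal fluid (aCSF). Wild-type (WT) littermates received aCSF. All animals thus had a cannula and 3 infusions of 10 µL into a lateral ventricle, starting near 6 months of age and repeated 2 and 4 weeks after surgery. Each dose of either oligonucleotide was 500 µg, and tissue was taken at 12 months.

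Mitochondrial DNA is transcribed as long precursor RNAs from both strands. The tRNAs lie between most of the other genes, and their excision frees the rRNAs and the messenger RNAs, most of which then receive a short poly(A) tail. The proteins are subunits of the respiratory chain, while the polymerase, the processing enzymes, the ribosomal proteins and most respiratory subunits come from nuclear genes. Mammalian nuclear chromosomes also hold copies of pieces of mitochondrial DNA. The libraries were primed with oligo-dT, so that an RNA was read only where the primer found a run of A.

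The libraries held between 658934 and 1419313 gene counts, on average 958910. Counts outside any feature took 16.3% to 33.7% of a file's counts, with group means of 19.5% in WT, 25.7% in YAC128 with aCSF, 23.8% with AON12.1 and 22.1% with the scrambled oligonucleotide. The 9 markers of striatal projection neurons summed to 2530 to 9357 counts per 1000000 gene counts (CPM), and none was at 0 in all libraries. Markers of choroid plexus, which lies in the ventricles, summed to 20.5 to 183 CPM except in 1 YAC128 aCSF library with 3302 CPM. Markers of cortical excitatory neurons summed to 20.8 to 1264 CPM. Markers of astrocytes summed to 2227 to 2621 CPM (median 2373) in YAC128 with aCSF and to 2664 to 3290 (median 2931) in WT, without overlap, with medians of 2792 with AON12.1 and 2684 with the scrambled oligonucleotide. Between WT and YAC128 with aCSF, the ranges of every other marker set overlapped. Microglia markers summed to 302 to 423 CPM in WT and 281 to 412 in YAC128 with aCSF. Endothelial markers summed to 164 to 213 and 149 to 215 CPM. The group medians of the striatal markers were 7078 in WT, 5001 with aCSF, 6111 with AON12.1 and 5584 with the scrambled oligonucleotide. Those of oligodendrocyte markers were 6368, 5638, 5107 and 5699 in the same order. The part of these tissue differences in the mitochondrial values was not tested. Counts from 3′ ends do not show which exons a huntingtin transcript holds, so they give no check of the oligonucleotide at its target.

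Mitochondrial genes took 1085643 of 30685124 gene counts. The 2 rRNAs made up 52.0% of them, the protein-coding genes 47.64% and the tRNA genes 0.3599%. Counts fell on 23 of the 37 genes, and 14 were listed at 0 in all 32 libraries, 4 of them protein-coding and 10 tRNA genes. Such a 0 allows up to 0.0978 CPM over the libraries together, for counting error only.

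The empty protein-coding genes lay side by side. In the order of the mitochondrial genome, 11 genes follow mt-Co1 and precede mt-Nd4, namely 6 protein-coding and 5 tRNA genes. These 11 genes held 6 counts in all libraries together, and 9 of them were at 0. The other 26 genes held 1085637 counts, and 5 of them were at 0. mt-Co2 and mt-Co3, both subunits of cytochrome c oxidase, had no count in any library, nor had mt-Atp8, a subunit of ATP synthase, or mt-Nd4l, a subunit of complex I. mt-Atp6, the other mitochondrial subunit of ATP synthase, had 5 counts in 4 libraries, and mt-Nd3, of complex I, had 1. The genes on either side were well counted, with 20455 counts for mt-Co1 and 113844 for mt-Nd4.

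The same stretch has a near-identical copy in the nucleus. For each mitochondrial gene, all 50-base windows of the RNA were searched in the transcripts of nuclear genes of the GENCODE mouse annotation. The windows of mt-Co2 were found there in 100% of cases, those of mt-Co3 in 99.86%, of mt-Atp6 in 99.53%, of mt-Nd4l in 98.79% and of mt-Nd3 in 97.99%. At the edges of the stretch 51.14% of the windows of mt-Co1 and 62.23% of those of mt-Nd4 were found. Outside it the share was 8.19% for mt-Nd2, 7.606% for mt-Nd5, 1.044% for mt-Rnr2 and 0 for mt-Rnr1, mt-Nd1, mt-Nd6 and mt-Cytb. No window of mt-Atp8 or of any tRNA gene was found in these transcripts, and sequence between annotated nuclear genes was not searched. mt-Atp8 and the 5 tRNA genes of the stretch were all at 0. Reads aligned more than once made up 8.80% of a file's counts on average and went to no gene. Their part in the empty stretch was not tested.

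**Figure D1:**
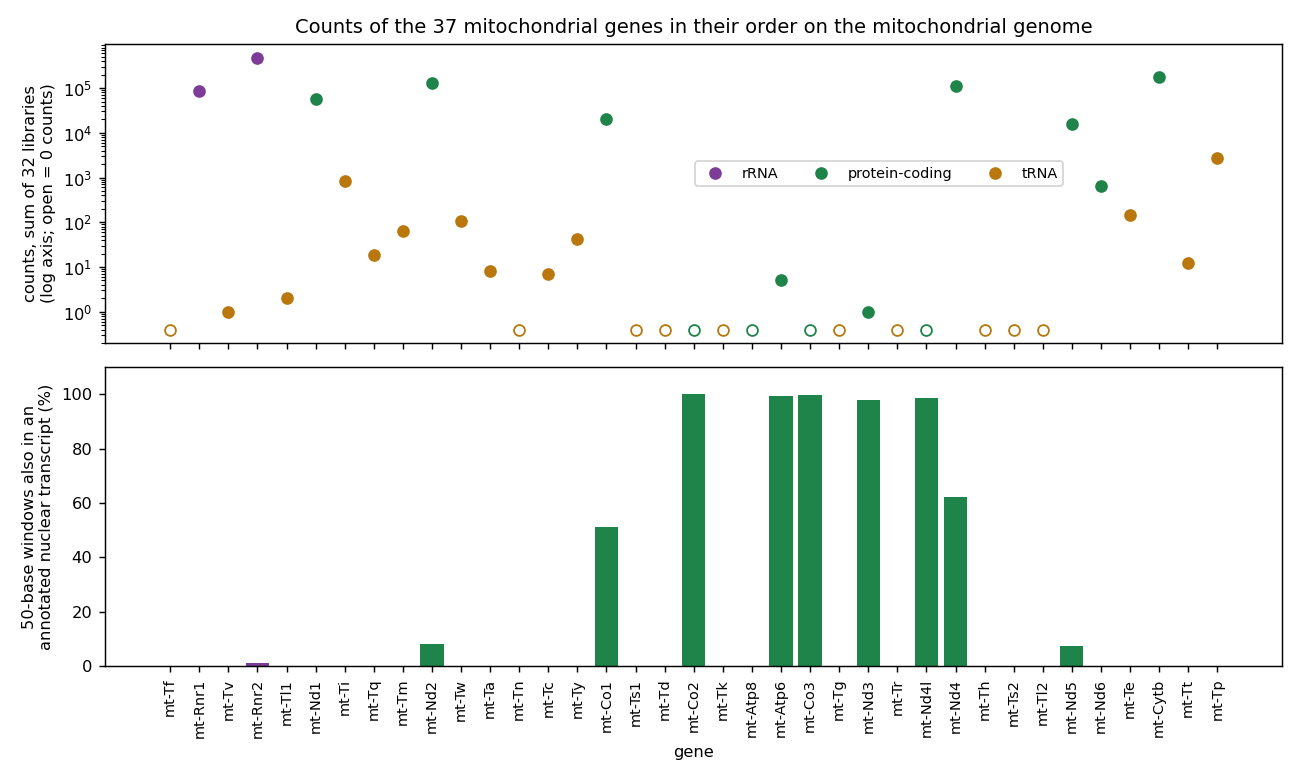
The upper panel gives the counts of each of the 37 mitochondrial genes, summed over 32 libraries on a log axis and in genome order, with open circles for genes at 0. The lower panel gives the percentage of each gene's 50-base windows also found in an annotated nuclear transcript, which was 97.99% to 100% for 5 of the 6 protein-coding genes between mt-Co1 and mt-Nd4, where only 6 counts fell.

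On chromosome 1, 7 pseudogenes carry the copy in the order Gm28439, Gm10222, Gm28438, Gm28437, Gm10925, Gm28661 and Gm29216, all on the minus strand. Read along that strand, they repeat the mitochondrial order from the end of mt-Co1 to the start of mt-Nd4. Gm28661 was identical to mt-Co2 over 681 bases, Gm10925 to mt-Atp6 over 678, Gm28437 to mt-Co3 over 783 and Gm10222 to mt-Nd4l over 294. Gm28439 was identical to mt-Nd4 over its 876 bases, which leaves the rest of the 1378-base mt-Nd4 outside the copy. Gm29216 matched the end of mt-Co1 at 486 of 492 bases. The last bases of mt-Co3 and of its copy are printed to show that they match up to the end of the annotated copy. The copy has 783 bases and mt-Co3 has 784, so the last base of mt-Co3 has no counterpart. The first bases of mt-Nd3 and its copy are printed to show the single difference between them, T3C. It is counted from 1 at the first base of mt-Nd3 and marked in capitals.
mt-Co3: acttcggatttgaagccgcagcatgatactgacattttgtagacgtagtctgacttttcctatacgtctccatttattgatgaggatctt
Gm28437: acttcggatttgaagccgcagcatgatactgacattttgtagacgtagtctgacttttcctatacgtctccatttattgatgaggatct
mt-Nd3: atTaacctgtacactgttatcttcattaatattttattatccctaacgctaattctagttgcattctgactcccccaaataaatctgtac
Gm28438: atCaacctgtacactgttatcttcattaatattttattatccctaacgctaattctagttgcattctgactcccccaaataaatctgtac

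The 7 copies on chromosome 1 held 10828 counts over all libraries. The 5 of them that match genes between mt-Co1 and mt-Nd4 held 8894, against 6 for those mitochondrial genes. The counts of 3 copies were uneven. Gm28437, the copy of mt-Co3, had a median of 22.5 counts per library, but 1806 in AON12.1 replicate 1 and 1792 in YAC128 aCSF replicate 4, and at most 95 elsewhere. YAC128 aCSF replicate 4 was also the library with the high choroid plexus markers. Gm10925, the copy of mt-Atp6, had 948 counts in scrambled replicate 5, 654 and 635 in YAC128 aCSF replicates 3 and 2 and 470 in AON12.1 replicate 4, and at most 77 elsewhere. Gm29216, the copy of the end of mt-Co1, had 510 counts in WT replicate 2, 384 and 284 in AON12.1 replicates 6 and 2, and at most 66 elsewhere. Each of these 3 copies was thus high in its own few libraries, which came from more than 1 group. Gm28661, the copy of mt-Co2, had at most 11 counts in a library, Gm28438 at most 47, Gm28439 at most 3 and Gm10222 at most 1. Gm13340, a copy of part of mt-Co1 on chromosome 2, was less sharply split, with a median of 98 counts and 1273 in YAC128 aCSF replicate 7. It had over 100 counts in 15 libraries and over 200 in 5.

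**Figure D2:**
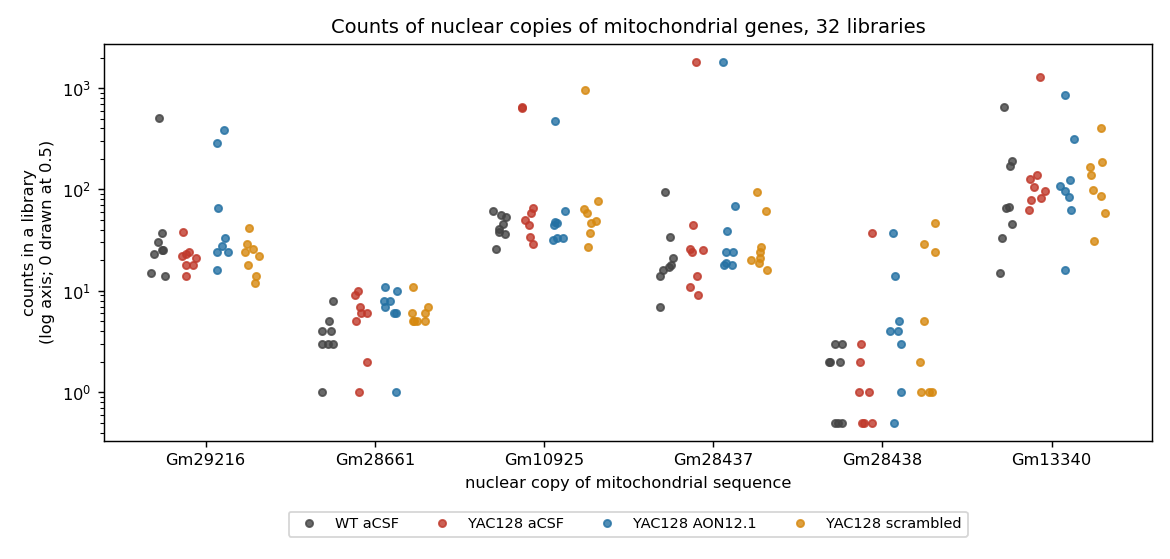
Each point is the count of a nuclear copy of mitochondrial sequence in 1 of 32 libraries, on a log axis, by group. A few libraries stand far above the rest for Gm28437, Gm10925 and Gm29216, with up to 1806 counts for Gm28437. Gm13340 is more widely spread, from 15 to 1273 counts.

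In the rRNA class, mt-Rnr2, the RNA of the large subunit of the mitochondrial ribosome, was the most counted gene of the genome with 480513 counts. mt-Rnr1, the RNA of the small subunit, had 83990. Per kilobase of gene, mt-Rnr2 averaged 9912 CPM over 32 libraries and mt-Rnr1 2847 CPM. In counts, mt-Rnr2 exceeded mt-Rnr1 by 5.85 ± 0.868 times (SD, n = 32), and this ratio ran from 4.29 to 8.49 between libraries.

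Among the protein-coding genes, mt-Cytb, the mitochondrial subunit of complex III, stood first with 180969 counts and 5183 CPM per kilobase. The complex I subunits mt-Nd2, mt-Nd4 and mt-Nd1 followed with 4042, 2712 and 1997 CPM per kilobase. mt-Co1, the catalytic subunit of cytochrome c oxidase, had 432 CPM per kilobase, and mt-Nd5 had 279. The order placed mt-Rnr1 and mt-Nd4 next to each other, at a distance smaller than the SD of either over libraries. mt-Nd6, the only protein-coding gene on the minus strand, had 646 counts and 40.4 CPM per kilobase. The sources used here do not say whether counting used strand, so reads of mt-Nd6 and of RNA from the opposite strand cannot be told apart. Values per kilobase set genes of unequal length side by side, although a library primed at runs of A need not gain reads with length.

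Of the tRNA genes, mt-Tp, for proline, held 2683 of the 3907 counts, and mt-Ti, for isoleucine, held 817. mt-Te, for glutamate, had 145 counts, mt-Tw, for tryptophan, had 107, and mt-Tm, for methionine, had 64. The remaining tRNA genes had at most 42 counts each. Per kilobase, mt-Tp reached 1312 CPM, above mt-Co1 and mt-Nd5. mt-Ti, at 385 CPM per kilobase, lay next to mt-Co1 at a distance smaller than its SD over libraries. mt-Tp and mt-Te lie on the minus strand, where the limit given for mt-Nd6 holds too. The 4 tRNA genes with the most counts are printed in full, as DNA of the strand that matches the tRNA and with no base in capitals, since they carry most counts of this class.
mt-Tp: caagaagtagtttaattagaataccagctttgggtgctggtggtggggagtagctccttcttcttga
mt-Ti: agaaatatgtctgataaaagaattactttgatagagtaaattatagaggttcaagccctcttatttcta
mt-Te: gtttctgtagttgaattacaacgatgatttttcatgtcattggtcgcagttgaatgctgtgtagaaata
mt-Tw: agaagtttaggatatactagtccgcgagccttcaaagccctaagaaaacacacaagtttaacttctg

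The mitochondrial share of gene counts was close to 3.55% in all groups. In WT mice the 37 genes took from 2.83% to 4.20%, with a median of 3.49%. In YAC128 mice given aCSF the share ran from 2.67% to 3.58%, with a median of 3.40%. With AON12.1 it ran from 3.12% to 4.26%, with a median of 3.75%, and with the scrambled oligonucleotide from 3.30% to 4.12%, with a median of 3.73%. The means were 3.44% ± 0.387, 3.30% ± 0.297, 3.66% ± 0.390 and 3.77% ± 0.284 (SD, n = 8 each), and the ranges of all groups overlapped. Both oligonucleotide groups lay above both aCSF groups in their means. With all counts of a file as the denominator the means were 2.41%, 2.13%, 2.40% and 2.53% in the same order, and AON12.1 no longer lay above WT. In bulk tissue, fewer cells of a type and less RNA per cell cannot be told apart.

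By class, the rRNAs took 1.78% ± 0.331 of gene counts in WT, 1.67% ± 0.148 in YAC128 with aCSF, 1.93% ± 0.330 with AON12.1 and 1.96% ± 0.212 with the scrambled oligonucleotide (SD, n = 8). The protein-coding genes took 1.65% ± 0.180, 1.61% ± 0.251, 1.72% ± 0.259 and 1.80% ± 0.232 in the same order. The tRNA genes took 0.0128% ± 0.00180, 0.0138% ± 0.00292, 0.0114% ± 0.00306 and 0.0132% ± 0.00174. The tRNA share was thus lowest with AON12.1, where the rRNA and protein-coding shares were not. Most tRNA counts were of mt-Tp, which averaged 89.5, 95.4, 74.3 and 92.4 CPM in the same order of groups. mt-Ti, the next in counts, averaged 24.0, 28.3, 26.7 and 27.3 CPM and was not lowest with AON12.1. The counts of rRNA over those of protein-coding genes, a ratio that does not depend on scaling between libraries, averaged 1.09 ± 0.232, 1.07 ± 0.227, 1.15 ± 0.282 and 1.10 ± 0.217. Between single libraries it ran from 0.778 to 1.61. Ranges overlapped between every pair of groups for every class and for the ratio. These sums are a description and were not tested.

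**Figure D3:**
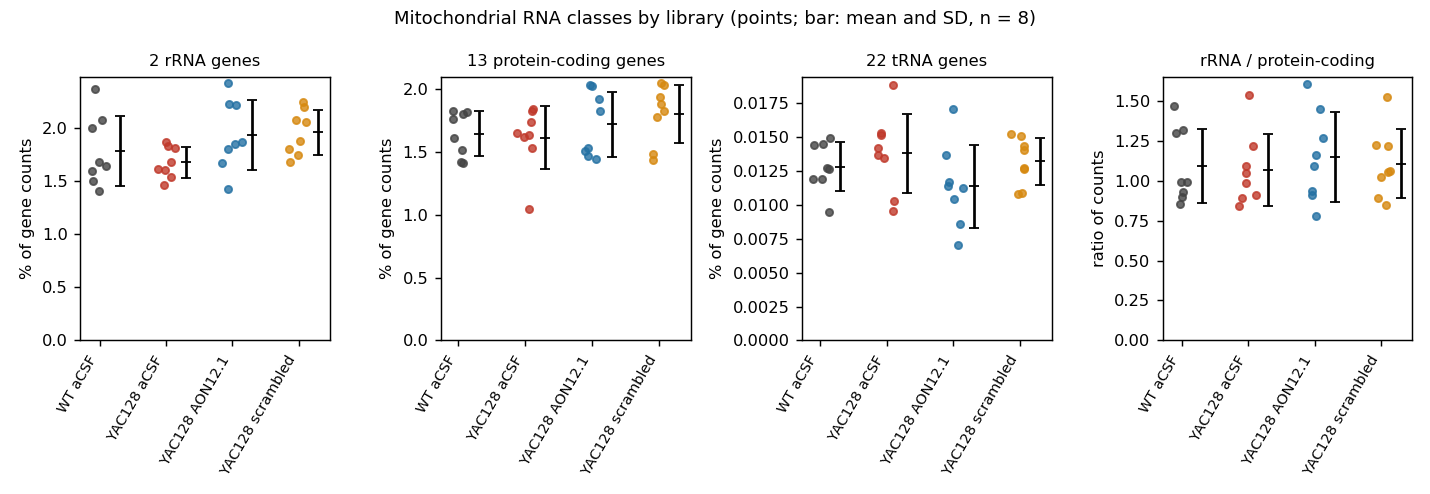
Points are the 32 libraries by group, and bars give the mean and SD (n = 8), for the percentage of gene counts on rRNA, protein-coding and tRNA genes and for the ratio of rRNA to protein-coding counts. All axes start at 0, the groups overlap in every panel, and 1 YAC128 aCSF library lies at 1.05% in the protein-coding panel.

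That library, YAC128 aCSF replicate 2, stood apart among the protein-coding genes. It was the lowest of its group for mt-Nd1, mt-Nd2, mt-Co1, mt-Nd4, mt-Nd5, mt-Nd6, mt-Cytb and mt-Tp. mt-Nd1 had 975 CPM there and at least 1570 in the rest of the group, and mt-Nd4 had 2147 against at least 3227. It was not the lowest of its group for either rRNA. Its share of counts outside any feature was 28.1%, within the range of its group. For the mitochondrial genes, values against YAC128 aCSF that it moved most are given with and without it, and the lists of nuclear genes with all libraries.

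Of the 37 genes, 11 passed the filter on low counts and were tested, namely both rRNAs, 7 protein-coding genes and the tRNA genes mt-Ti and mt-Tp. The other 26 were too low to test. YAC128 mice were first compared with WT mice, both given aCSF, for the effect of the transgene. None of the 11 genes was called at an adjusted p under 0.05 with edgeR's quasi-likelihood test, where 0.0749% of 10679 genes were called. None reached an unadjusted p under 0.05, where 1301 of all 10679 genes did, and DESeq2 and limma voom called none. mt-Rnr2 had 11847, 14214 and 21506 CPM (lowest, median and highest library) in WT and 11743, 13468 and 15757 in YAC128. The groups overlapped, and the log2 fold change was -0.16 ± 0.11 (SE; adjusted p = 0.586). mt-Rnr1 differed by -0.06 ± 0.12 and mt-Cytb by -0.08 ± 0.11 on the log2 scale. The complex I genes were at -0.09 for mt-Nd1, -0.14 for mt-Nd2, -0.04 for mt-Nd4, -0.10 for mt-Nd5 and 0.03 for mt-Nd6, and mt-Co1 was at -0.04. The 2 tRNA genes were at 0.26 for mt-Ti and 0.08 for mt-Tp. Without YAC128 aCSF replicate 2, mt-Nd1 was at 0.00, mt-Nd4 at 0.03, mt-Co1 at 0.01, mt-Nd2 at -0.07, mt-Nd5 at -0.05, mt-Cytb at -0.02, mt-Nd6 at 0.16 and mt-Tp at 0.17. mt-Rnr2 was at -0.09 and mt-Rnr1 at -0.01 without WT replicate 2. With WT replicate 7 left out instead, mt-Rnr1 was at -0.13, and without WT replicate 8 mt-Nd6 was at -0.08. The 95% intervals of the rRNA and protein-coding log2 fold changes lay between -0.42 and 0.47, the bounds of mt-Nd6.

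Values were lower in YAC128 for 8 of the 11 genes, with a median log2 fold change of -0.06 beside 0.01 for all genes tested. This direction did not hold within both series of animal numbers in the labels. In animals numbered from 18, with 4 YAC128 aCSF and 3 WT libraries, 9 of 11 genes were lower, with a median of -0.25. In animals numbered from 19, with 4 and 5 libraries, 10 of 11 were higher, with a median of 0.04. Without YAC128 aCSF replicate 2, 5 of the 11 were lower and the median was 0.00. As it was in the series numbered from 18, these limits are not separate, and that series was not fitted without it. No gene was called in either series or without that library.

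AON12.1 was compared with the scrambled oligonucleotide for what depends on its sequence. None of the 11 genes was called by edgeR, where 0.14% of genes were called, nor by DESeq2 or limma voom. An unadjusted p under 0.05 was found for 781 of all 10679 genes and for 1 of the 11. That gene was mt-Tp. It had 46.6, 73.9 and 111 CPM (lowest, median and highest) with AON12.1 and 78.0, 92.4 and 105 CPM with the scrambled oligonucleotide. Of the AON12.1 libraries, 1 of 8 lay above the scrambled median, and the ranges overlapped. The log2 fold change was -0.32 ± 0.14 (SE; adjusted p = 0.615, edgeR). The second tRNA gene, mt-Ti, was at -0.06 ± 0.20. mt-Rnr2 had 11346, 16114 and 20570 CPM with AON12.1 and 13936, 16586 and 19542 CPM with the scrambled oligonucleotide. Its log2 fold change of 0.00 ± 0.11 (SE) had a 95% interval from -0.23 to 0.24. The protein-coding genes lay between -0.16 for mt-Cytb and 0.13 for mt-Nd5. Without AON12.1 replicate 3, which had 864 CPM of mt-Nd5 with 679 in the next library, mt-Nd5 was at 0.03. The median over the 11 genes was -0.06, beside 0.00 for all genes, and 7 were lower. In animals numbered from 18, by contrast, with only 2 libraries in each group, 9 of 11 were higher. In those numbered from 19, with 6 in each, 8 of 11 were lower.

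**Figure D4:**
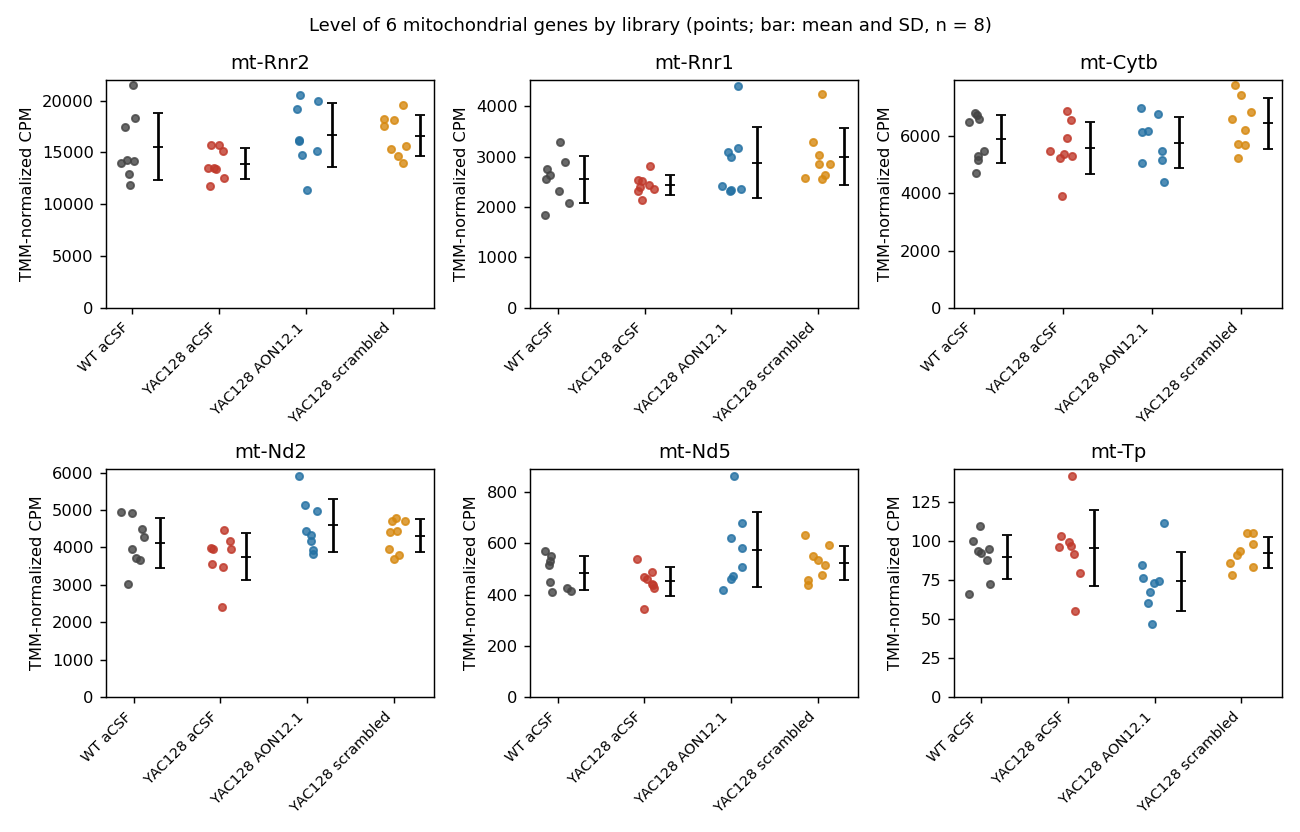
TMM-normalized CPM of 6 mitochondrial genes in each library by group, with the mean and SD (n = 8) and axes from 0. Groups overlap in every panel, and the single AON12.1 library at 4399 CPM and scrambled library at 4237 CPM stand above the rest for mt-Rnr1.

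Both oligonucleotides were also compared with aCSF in YAC128 mice. The comparisons share their 8 aCSF libraries. None of the 11 genes was called for AON12.1, where 0.3% of genes were called, and 4 had an unadjusted p under 0.05. None was called for the scrambled oligonucleotide, where 0.0843% were called, and 3 had an unadjusted p under 0.05. Of all 10679 genes, 1235 had such a p for AON12.1 and 1047 for the scrambled oligonucleotide. DESeq2 and limma voom called none in either.

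mt-Nd5, a subunit of the proton-pumping arm of complex I, had the smallest p of the 11 for AON12.1, while mt-Rnr1 had it for the scrambled oligonucleotide. mt-Nd5 had 345, 451 and 539 CPM (lowest, median and highest) with aCSF, 419, 543 and 864 with AON12.1 and 438, 526 and 631 with the scrambled oligonucleotide. In 7 of 8 AON12.1 libraries the value was above the aCSF median, and the ranges overlapped. The log2 fold change was 0.35 ± 0.11 for AON12.1 (SE; adjusted p = 0.182, edgeR; 0.0713 with DESeq2) and 0.22 ± 0.11 for the scrambled oligonucleotide (adjusted p = 0.533). Without YAC128 aCSF replicate 2 these were 0.30 and 0.17, and without AON12.1 replicate 3 the AON12.1 value was 0.25. Within animals numbered from 18 and from 19, the AON12.1 value for mt-Nd5 was 0.45 and 0.32.

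mt-Nd2, of the membrane arm of complex I, had 2412, 3958 and 4464 CPM with aCSF, 3817, 4390 and 5919 with AON12.1 and 3702, 4418 and 4789 with the scrambled oligonucleotide. The log2 fold changes were 0.29 ± 0.11 (SE; adjusted p = 0.245, edgeR) and 0.20 ± 0.11 (adjusted p = 0.544). Within animals numbered from 18, where 2 AON12.1 libraries faced 4 aCSF libraries, mt-Nd2 was at 0.71 and was called (adjusted p = 0.0438, edgeR). That fit called 256 of all 10941 genes tested, and YAC128 aCSF replicate 2 was among its libraries. Within animals numbered from 19 mt-Nd2 was at 0.06. Without YAC128 aCSF replicate 2 the value of mt-Nd2 was 0.22 for AON12.1 and 0.13 for the scrambled oligonucleotide.

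The rRNAs were higher in value with both oligonucleotides. mt-Rnr2, with the aCSF, AON12.1 and scrambled values given above, had log2 fold changes of 0.26 ± 0.11 (SE; adjusted p = 0.364, edgeR) and 0.26 ± 0.11 (adjusted p = 0.462). All 8 scrambled libraries and 7 of 8 AON12.1 libraries lay above the aCSF median. mt-Rnr1 had 2133, 2419 and 2819 CPM with aCSF, 2322, 2702 and 4399 with AON12.1 and 2554, 2852 and 4237 with the scrambled oligonucleotide. For mt-Rnr1, 4 of 8 AON12.1 libraries and all 8 scrambled libraries lay above the aCSF median. Its log2 fold changes were 0.24 ± 0.12 (adjusted p = 0.438) and 0.30 ± 0.12 (adjusted p = 0.408). Without AON12.1 replicate 4 the first was 0.13, and without scrambled replicate 6 the second was 0.21. Leaving out YAC128 aCSF replicate 2 moved these rRNA values by less than their SE.

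The other protein-coding genes differed less with AON12.1. mt-Nd4 was at 0.13 and mt-Co1 at 0.11, mt-Nd1 at 0.07, mt-Cytb at 0.05 and mt-Nd6 at -0.03 on the log2 scale. With the scrambled oligonucleotide they were at 0.19, 0.20, 0.17, 0.21 and -0.10. Without YAC128 aCSF replicate 2 the AON12.1 values were 0.05 for mt-Nd4, 0.06 for mt-Co1, -0.02 for mt-Nd1, -0.01 for mt-Cytb and -0.15 for mt-Nd6, so that mt-Nd1 and mt-Cytb changed sign. The scrambled values without it were 0.11, 0.15, 0.08, 0.15 and -0.23 in the same order. The sign of mt-Nd6 with AON12.1 also turned without AON12.1 replicate 5, at 0.12. mt-Tp went the other way with AON12.1, at -0.35 ± 0.14 (SE; adjusted p = 0.308, edgeR), and was at -0.03 ± 0.14 with the scrambled oligonucleotide. Its aCSF libraries had 55.1, 96.5 and 141 CPM. Without YAC128 aCSF replicate 2 mt-Tp was at -0.44 and -0.12.

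Values were higher than with aCSF for 8 of 11 genes with either oligonucleotide, with medians of 0.11 for AON12.1 and 0.20 for the scrambled oligonucleotide, beside -0.01 for all genes in both. For AON12.1, 10 of 11 genes were higher in animals numbered from 18 and 4 of 11 in those numbered from 19. Without YAC128 aCSF replicate 2, which was in the series numbered from 18, the count was 6. For the scrambled oligonucleotide, 11 of 11 and 8 of 11 were higher in the 2 series, and 8 without that library.

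**Figure D5:**
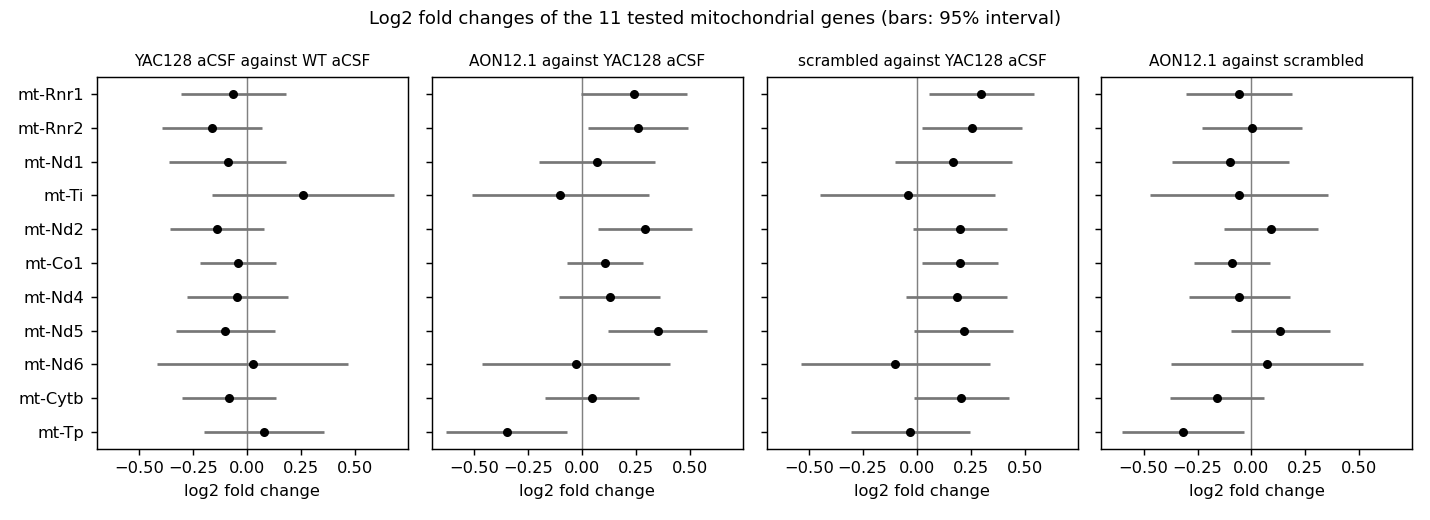
Log2 fold changes (x axis) of the 11 tested mitochondrial genes in genome order, with 95% intervals, for 4 comparisons. Intervals cover 0 for all genes in the comparison of YAC128 with WT and for all but mt-Tp between AON12.1 and scrambled, and no gene was called in any panel.

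Against WT mice, AON12.1-treated YAC128 mice had no mitochondrial gene called by edgeR, DESeq2 or limma voom, where edgeR called 0.562% of all genes. An unadjusted p under 0.05 was found for 1554 of all 10679 genes and for 1 of the 11 mitochondrial genes. That was mt-Nd5, with 410, 483 and 571 CPM in WT and a log2 fold change of 0.25 ± 0.11 (SE; adjusted p = 0.303, edgeR). Without AON12.1 replicate 3 that value of mt-Nd5 was 0.14. Scrambled-treated mice had none called by the 3 tools, where edgeR called 0.159%. None of the 11 had an unadjusted p under 0.05, where 1047 of all genes did, although values were higher for 10 of 11 with a median of 0.12. A test for any difference between the 4 groups called 0.758% of genes and none of the 11, among which mt-Nd5 had the smallest adjusted p (0.265, edgeR).

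The biological coefficient of variation, the spread between animals beyond counting error, ran for the 11 genes from 0.121 for mt-Co1 to 0.210 for mt-Ti, beside 0.167 in common over all genes. In counts simulated for the comparison of YAC128 with WT, a 1.5-fold change was called in 56% of 100 genes and a 2-fold change in 96% of 100. The simulation gave all genes the same spread and changed far more genes than the 8 called in the real comparison. The changed genes had median SEs of 0.163 and 0.161, where mt-Co1 had 0.087 and mt-Nd6 0.22 in the real comparison. These percentages are thus not the share of such changes that would be called among the 11 genes.

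Across libraries several protein-coding genes moved together. Of 55 pairs of the 11 tested genes, mt-Nd1 and mt-Nd4 were the most alike, with Pearson's r = 0.91 and Spearman's rho = 0.86 over 32 libraries in log2 CPM. mt-Nd4 with mt-Cytb reached r = 0.87 (rho = 0.84), mt-Nd1 with mt-Cytb 0.85 (rho = 0.82) and mt-Nd2 with mt-Nd4 0.80 (rho = 0.73). For these 4 pairs the permutation p adjusted over the 55 pairs was 0.000137 for both measures, the smallest that 100000 permutations could give. With 2 libraries left out, those farthest from the median of the gene named first, r was 0.86, 0.82, 0.78 and 0.66. The same choice was made for the pairs below, so a library distant only in the second gene was kept. Within animals numbered from 18 it was 0.95, 0.96, 0.91 and 0.94, and within those numbered from 19 it was 0.85, 0.83, 0.83 and 0.60.

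mt-Rnr1 and mt-Rnr2 had r = 0.66 and rho = 0.67 (adjusted permutation p = 0.00033 and 0.000236), with 0.62 when the 2 most distant libraries were left out and 0.72 and 0.67 within the 2 series. mt-Rnr2 with mt-Nd1 had r = -0.05 and rho = -0.07 (adjusted permutation p = 0.834 and 0.822), and -0.03 without the 2 farthest libraries. Within the series numbered from 18 and 19 that pair had 0.14 and -0.19. mt-Rnr2 with mt-Cytb had r = 0.03 and rho = 0.00 (adjusted permutation p = 0.904 and 0.989), and 0.00 without the 2 farthest libraries. Over all 32 libraries mt-Nd6 did not follow the other protein-coding genes past adjustment. Its r with them ran from 0.12 to 0.35, with adjusted permutation p from 0.0926 to 0.618. Within animals numbered from 18 this r ran from 0.61 to 0.81, and within those numbered from 19 from -0.16 to 0.03. mt-Rnr1 with mt-Co1 had r = 0.46 and rho = 0.55 (adjusted permutation p = 0.0226 and 0.00564), 0.65 without the 2 most distant libraries, and 0.67 and 0.41 within the 2 series. mt-Rnr1 with mt-Cytb, mt-Nd5 and mt-Nd4 had rho = 0.46, 0.46 and 0.44 (adjusted permutation p = 0.0181, 0.0181 and 0.0229), and r = 0.34, 0.33 and 0.36 (0.0999, 0.116 and 0.0831). For these 3 pairs r was 0.44, 0.47 and 0.47 without the 2 most distant libraries, 0.66, 0.69 and 0.73 in animals numbered from 18 and 0.25, 0.23 and 0.24 in those numbered from 19. mt-Rnr2 with mt-Co1 had r = 0.43 and rho = 0.49 (adjusted permutation p = 0.0302 and 0.0116), with 0.54 without the 2 farthest libraries and 0.47 and 0.44 within the 2 series. The 2 tRNA genes also had pairs that passed adjustment. mt-Nd1 with mt-Tp had r = 0.59 and mt-Cytb with mt-Tp 0.58 (adjusted permutation p = 0.00144 and 0.00165). mt-Ti with mt-Cytb had 0.54 and mt-Ti with mt-Tp 0.51 (0.00501 and 0.00751). Within animals numbered from 18 these mt-Ti pairs had 0.16 and 0.05, and within those numbered from 19 0.70 and 0.63. mt-Nd2 had 0.17 with mt-Tp and 0.07 with mt-Ti (0.438 and 0.769). All values of a library share its scaling factor.

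Nuclear genes that make, process and translate mitochondrial RNA were described from 4 lists. Of 26 genes for replication and transcription of mitochondrial DNA, 16 were tested and none was called in any of the 6 comparisons by edgeR. Of 48 genes for RNA processing, stability and tRNA charging, 34 were tested and none was called. Of 91 genes of the mitochondrial ribosome and translation, 84 were tested. Only Mrpl17, a protein of the large ribosomal subunit, was called, in AON12.1 against WT, where 60 of all 10679 genes (0.562%) were called. It was 0.38 ± 0.09 lower there on the log2 scale (-0.38, adjusted p = 0.0301, edgeR). It averaged 92.8 ± 13.9 CPM with AON12.1 and 121 ± 13.5 in WT, with 111 ± 10.9 with aCSF and 108 ± 9.18 with the scrambled oligonucleotide in YAC128 (SD, n = 8).

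All 78 nuclear-encoded respiratory chain subunits were tested. Atp5d, the delta subunit of ATP synthase, was the only one called, again in AON12.1 against WT, where 0.562% of all genes were called. Its log2 fold change was -0.35 ± 0.08 (SE, adjusted p = 0.0196, edgeR). It averaged 885 ± 89.2 CPM with AON12.1, 1128 ± 103 in WT, 1015 ± 98.4 with aCSF and 1069 ± 112 with the scrambled oligonucleotide (SD, n = 8). In YAC128 against WT with aCSF, values were lower for 72 of the 78 subunits, with a median of -0.13 beside 0.01 for all genes and none called. The subunits with the smallest p there were Ndufs7 of complex I at -0.30 ± 0.09 (SE; adjusted p = 0.176, edgeR) and Uqcrc1 of complex III at -0.24 ± 0.08 (adjusted p = 0.204). In AON12.1 against scrambled they were Atp5d at -0.27 ± 0.08 (adjusted p = 0.327) and Ndufb11 of complex I at -0.25 ± 0.10 (adjusted p = 0.515). Of the 78 subunits, 67 were also lower in AON12.1 against WT and 54 in scrambled against WT, with the same WT libraries. In YAC128 against WT with aCSF, 58 of 84 ribosome and translation genes were lower. In the transcription and RNA processing lists 5 of 16 and 16 of 34 were lower there. The directions of the lists were not taken by animal number or without YAC128 aCSF replicate 2.

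In the other lists, Lig3, a DNA ligase that also serves mitochondria, had 12.05 ± 3.93 CPM in WT and 19.3 ± 5.19 in YAC128 with aCSF (SD, n = 8), with a log2 fold change of 0.65 ± 0.20 (adjusted p = 0.178, edgeR). Trmu, which modifies mitochondrial tRNAs, had 11.6 ± 3.73 and 18.8 ± 6.30 CPM, with a log2 fold change of 0.68 ± 0.23 (adjusted p = 0.204). The remaining genes with the smallest p in that comparison were Esrra at -0.19, Ptcd1 at -0.34, Mrpl24 at -0.32 and Mrps9 at 0.36, with adjusted p-values from 0.277 to 0.405. In AON12.1 against scrambled, Trnt1, which adds the 3′ CCA end to tRNAs, was at -0.52 ± 0.21 (SE; adjusted p = 0.544, edgeR). Nsun4, a methyltransferase of mitochondrial rRNA, was at -0.59, Twnk, the mitochondrial DNA helicase, at -0.45 and the transcription factor Nrf1 at -0.35. The ribosomal proteins Mrps33 and Dap3 were at 0.51 and 0.28. Adjusted p-values of these 6 genes ran from 0.469 to 0.751.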

How the data were processed

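Striatal RNA of 32 mice was measured by 3′ RNA sequencing, per the labels' protocols by a modified mcSCRB-seq method with an oligo-dT primer that carries a molecular identifier. The submitters' processing notes name FastQC, cutadapt (2.10), STAR (2.7.5a), HTSeq (0.12.4) and the GRCm39 build. Use of the identifiers, strand and read length were not given in these sources. Each deposited file lists integer counts by gene, not normalized by the authors, and 5 summary lines that were left out of library sizes and tests. Groups came from the sample titles, and each title carries its own animal number.

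Members were matched by symbol. Symbols, order and sequences came from the GENCODE M21 annotation of GRCm38, another build than that of the counts, so no coordinates are given. The members and lists were chosen with earlier results of these data known. Named genes were all rRNA and protein-coding members, tRNA genes that passed the filter or had the most counts, every called gene of a list and the 2 with the smallest p in YAC128 against WT and in AON12.1 against scrambled.

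Counts were analysed with edgeR 4.0.16 in R 4.3.3. filterByExpr (minimum count 10, minimum total 15) kept 10679 genes. All 32 libraries entered 1 TMM-normalized quasi-likelihood fit with a coefficient per group, and p-values were adjusted by Benjamini-Hochberg over all tested genes with a threshold of 0.05. Levels are TMM-normalized CPM, and shares are percentages of gene counts. Alternatives were DESeq2 1.42.0, limma voom 3.58.1, other scaling, filters, covariates and denominators, subsets by animal number or by share of counts outside any feature, and leaving out each library. The fit was tested on simulated data for the comparison of YAC128 with WT (10590 genes), where 5 unchanged genes were called.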

Additional observations from a re-analysis of the deposited data

Results flagged for a closer look

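In groups of 8 libraries, a value was picked out where the gap between the highest or lowest library and its neighbour exceeded Dixon's 95% critical value, relative to the group's range. Of 68 sets of 8 values examined, 5 met this, and chance alone gives about 1 in 20. mt-Rnr1 was far above its group in AON12.1 replicate 4, with 4399 CPM and 3163 in the next library, and in scrambled replicate 6, with 4237 CPM and 3287 in the next. In the same scrambled library the ratio of mt-Rnr2 to mt-Rnr1 counts was far below its group, at 4.29 with 5.38 in the next. mt-Co1 was far below its group in WT replicate 7, with 540 CPM and 643 in the next. The share of gene counts on protein-coding mitochondrial genes was far below its group in YAC128 aCSF replicate 2, at 1.05% with 1.53% in the next. Counts outside any feature made up 33.7% of the file in AON12.1 replicate 4, 23.0% in scrambled replicate 6, 18.1% in WT replicate 7 and 28.1% in YAC128 aCSF replicate 2.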

How the results depend on the processing

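The count of 0 mitochondrial genes called held in every comparison under every alternative except 1. With only animals numbered from 18, AON12.1 against YAC128 aCSF called 1 of these genes, mt-Nd2 (log2 fold change 0.71). That fit called 256 of all 10941 genes tested. Leaving out any 1 library left each count at 0. With all counts of the file as the denominator, the share of all 37 genes was 2.41% in WT, 2.13% in YAC128 aCSF, 2.40% with AON12.1 and 2.53% with scrambled. In the same order, that of rRNA was 1.24%, 1.08%, 1.26% and 1.32%, of protein-coding genes 1.16%, 1.04%, 1.13% and 1.21%, and of tRNA 0.00898%, 0.00887%, 0.00747% and 0.00888%. These are lower by construction, since the denominator is larger. The other shares and the ratios moved by less than 1 SD. With a minimum count of 30, 9 of the 11 genes were tested. No paired analysis was possible because the labels give no replicate numbers shared between groups. The deepest library allows 2.11 CPM and the shallowest 4.55 CPM for a gene at 0, so single low tRNA genes could not be compared.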

Other observations

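The 11 tested genes were also set against the share of a file's counts outside any feature, over 32 libraries. Pearson's r ran from -0.27 for mt-Nd2 to 0.13 for mt-Rnr1, and no permutation p passed adjustment over the 11 relations (lowest adjusted p 0.796 for Pearson's r and 0.708 for Spearman's rho). Within animals numbered from 18, r was -0.83 for mt-Rnr1 and -0.76 for mt-Nd2, and within those numbered from 19 it was 0.44 and 0.25. The difference between the series was not tested. In the series numbered from 18, the YAC128 aCSF libraries had shares of 27.5% to 31.1%. Of the others there, WT replicate 1 had 30.2% and the next, scrambled replicate 2, had 24.2%. Group and share thus cannot be told apart in that series.

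Gm13341, a chromosome 2 copy of part of mt-Co2, had 13 to 117 counts per library, and Gm13339, a copy of part of mt-Nd2, had 5 to 112, with no library as far above the others as those given for Gm28437.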
